A study of Mus musculus with 24 samples.

Results

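The transcripts of 10 genes of the circadian clock and its output were followed in the hippocampus of 24 mice. The genes were taken as a fixed list of symbols (Arntl, Npas2, Per1, Per2, Per3, Ciart, Nr1d1, Nr1d2, Dbp and Tef) out of 55385 gene identifiers in the count files, and all 10 had counts in every mouse and passed the filter on low counts in every comparison. The study removed Tsc1, a brake on the mTOR kinase, from forebrain excitatory neurons of adult mice to follow how epilepsy develops. All 24 mice were Tsc1 fl/fl and received tamoxifen; in the Cre-positive mice the tamoxifen-dependent recombinase was driven by the Camk2a promoter, so that other hippocampal cells keep Tsc1. The control group was 4 mice without the transgene (Tsc1-Cre-), collected on day 8 after the first tamoxifen injection. The 4 day 4, 4 day 6, 4 day 8 and 4 day 13 mice carried the transgene and got no drug, and the 4 Rap 4 mice carried it, received rapamycin, an inhibitor of mTOR, at 10 mg/kg each day from day 4, and were collected on day 13. There was a single control group, so every comparison with control uses the same 4 mice. Mice within a group are named by the letters A to D of their labels.

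The clock runs in most cells as a loop of transcription and translation. Arntl (BMAL1) pairs with Clock or, in forebrain, with Npas2, and the pair binds E-box sequences and turns on the Period and Cryptochrome genes, whose proteins return to the nucleus and silence the pair. A second loop runs through Nr1d1 and Nr1d2 (REV-ERB alpha and beta), which are turned on through E-boxes and repress Arntl at ROR elements, and an output arm runs through Dbp and Tef, transcription factors that activate D-box promoters such as that of Per3. Ciart (CHRONO) is a repressor of the Arntl complex. In such a loop Arntl and Dbp peak at opposite times of day. The mice lived on a regular light/dark cycle, and the hour at which each was killed is not given in the sources used here, so an uneven hour of sampling and a shift of the clock at a fixed hour cannot be told apart from the level of a transcript alone.

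The count totals ran from 28208561 to 126435936 per mouse, with a median of 55582027. Tsc1 itself was between 103 and 109 CPM (a gene's counts per 1000000 counts of the library, scaled by the trimmed mean of M-values) in control and between 57.4 and 81.7 CPM in the 20 Cre-positive mice, with no overlap. The mice were not alike within the late groups. Gfap, the intermediate filament of reactive astrocytes, was at 682, 127, 900 and 158 CPM in day 8 mice A to D and at 751, 1357, 372 and 437 CPM in day 13 mice A to D, against 162 to 209 CPM in control. Fos, induced by neuronal firing, was at 102, 51.9, 151 and 1.78 CPM in day 13 mice A to D and at most 10.7 CPM in every other mouse. The file names start with a number shared by some mice: control and day 8 share both of theirs (mice A and B carry one, C and D the other), while no other group shares a number with control. Day 13 mice A and B share a number that mice C and D lack.

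The promoters of the members hold the sequences named above unevenly, and the stretches are shown here as background. A link between these sequences and the levels below was not tested. RefSeq gives a 300-base window (GRCm38.p6, 250 bases before the start and 50 after) for 9 of the 10 genes, with a pair of windows for Arntl, Per1 and Tef. The windows were searched on both strands for the E-box CACGTG, its variant AACGTG, the D-box TTANGTAA and the ROR element TAGGTCA. A base may belong to matches of more than 1 motif, which did not occur in the members. Across all 32851 windows, 7.15% hold CACGTG, 4.68% AACGTG, 2.32% TTANGTAA and 2.61% TAGGTCA. Ciart holds CACGTG 3 times, beginning 116, 58 and 44 bases before its start. Per3 holds the D-box 2 times, beginning 205 and 158 bases before its start, and no other of the 4 motifs. Each sequence reads 5′ to 3′ on the gene's strand, with the motif in capitals.
Ciart, chr3:95882252-95882359, minus strand, upstream of the gene: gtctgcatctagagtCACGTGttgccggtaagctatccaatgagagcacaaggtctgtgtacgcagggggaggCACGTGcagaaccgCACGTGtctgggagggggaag
Per3, chr4:151044801-151044885, minus strand, upstream of the gene: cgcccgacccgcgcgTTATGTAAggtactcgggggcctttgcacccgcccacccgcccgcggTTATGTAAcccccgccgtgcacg
Per1, chr11:69098771-69098800, plus strand, in an intron of the longest gene model: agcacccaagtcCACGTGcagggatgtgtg
Tef, chr15:81802534-81802563, plus strand, in the UTR of a longer gene model: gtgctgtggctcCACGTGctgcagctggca
Nr1d1, chr11:98775388-98775417, minus strand, upstream of the gene: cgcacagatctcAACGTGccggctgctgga
Arntl, chr7:113207531-113207557, plus strand, in the UTR: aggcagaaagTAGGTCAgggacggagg

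Per1 and Tef each hold 1 CACGTG per window that has any, Nr1d1 holds 1 AACGTG beginning 28 bases before its start, and Arntl holds 1 TAGGTCA beginning at base 31 of the transcript. The windows of Npas2, Dbp and Nr1d2 hold none of these letters, which says nothing of sites outside 300 bases. A match is a string of letters and not a measured site.

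In control hippocampus the output gene Tef was the most abundant member. Per kilobase of exon it stood at 46.2 ± 1.34 CPM per kb (SD, n = 4), followed by Nr1d2 at 18.2 ± 0.777. Per3 (9.22 ± 0.230) and Nr1d1 (9.10 ± 1.08) did not differ beyond their spread, nor did Per1 (7.82 ± 0.392) and Per2 (7.31 ± 0.795), or Arntl (6.63 ± 0.403) and Dbp (6.21 ± 0.790). Npas2 (3.88 ± 0.351) and Ciart (2.78 ± 0.434) were the lowest per length. All other levels below are in CPM, within 1 gene, and give the values of mice A to D in that order. Differences are log2 fold changes with their standard errors from edgeR's quasi-likelihood test with Benjamini-Hochberg adjustment over all genes tested. A gene was called when its adjusted p was under 0.05 and its log2 fold change was beyond 0.5 in size. Tissue was measured in bulk, in which fewer cells of a type and less RNA per cell cannot be told apart.

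**Figure D1:**
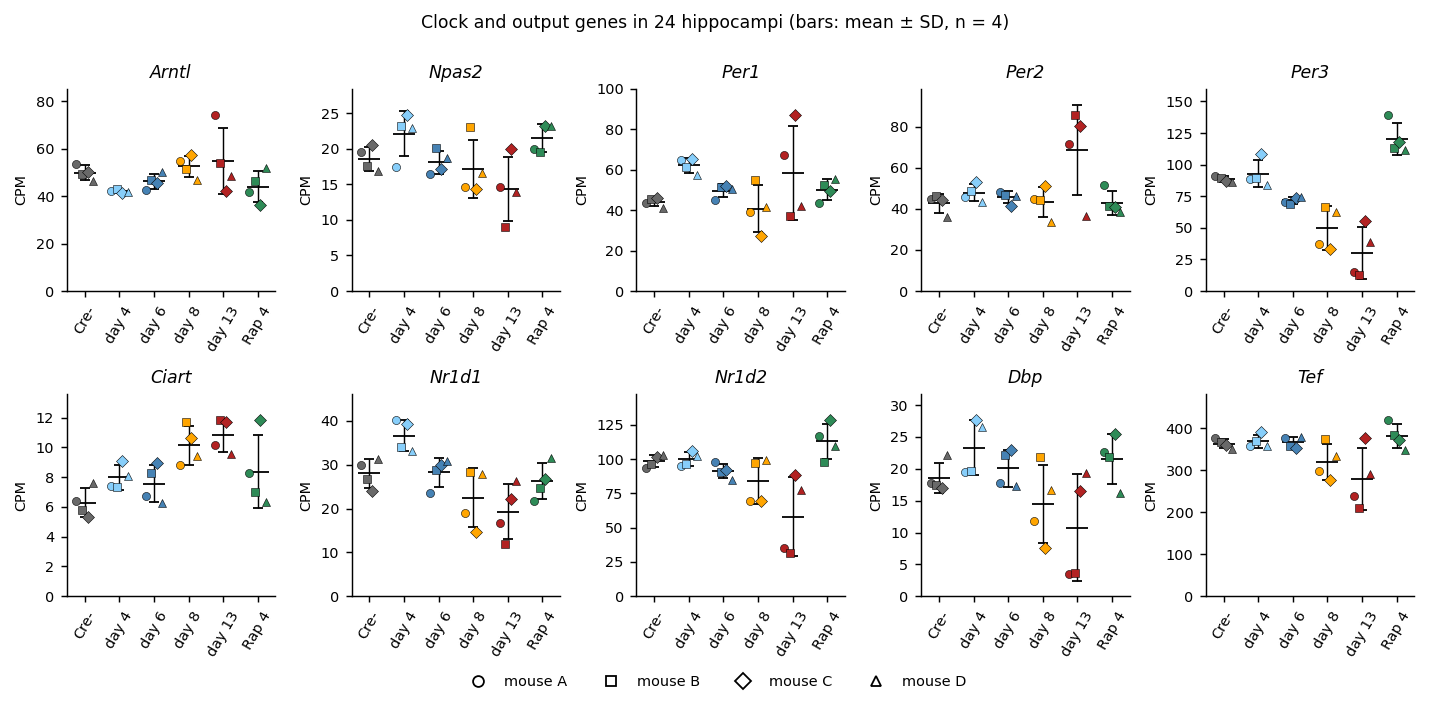
Level of each of the 10 genes (y axis, CPM from 0) in every mouse of the 6 groups (x axis), with marker shape for mice A to D and bars for mean ± SD (n = 4). Per3 is lower than control in all mice collected untreated on days 6, 8 and 13 and highest in the Rap 4 mice, Ciart is higher in all day 8 and day 13 mice than in control, and in Dbp, Nr1d2 and Tef day 8 mice A and C and day 13 mice A and B lie below the other mice of their groups.

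Arntl (chr7:113207465-113314126), the core activator, was not called in any comparison. It stood at 53.6, 49.5, 50.4 and 46.2 CPM in control and at 42.1, 42.9, 41.3 and 41.6 CPM on day 4. The day 4 mice were all below the control mice and nearly alike. The difference on day 4 was -0.25 ± 0.047 (edgeR adjusted p = 0.0133), under the minimum fold change, so it was not called. Over the edgeR and DESeq2 alternatives that left out no mouse its adjusted p reached 0.523. On day 6 the mice read 42.5, 46.9, 45.4 and 50.0 CPM, on day 8 54.7, 51.5, 57.1 and 47.0 CPM, and under rapamycin 41.9, 46.3, 36.3 and 51.7 CPM. These ranges overlapped control. On day 13 Arntl was at 74.2, 54.2, 42.0 and 48.7 CPM, with mouse A above all other 23 mice, and the mean difference from control (0.11 ± 0.15, edgeR adjusted p = 0.602) was smaller than its error.

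Npas2 (chr1:39193731-39363236), the forebrain partner of Arntl, was at 19.5, 17.5, 20.5 and 16.9 CPM in control and at 14.7, 8.97, 19.9 and 13.9 CPM on day 13. Day 13 mouse B had the lowest value of all 24 mice, and mouse C lay inside the control range. The Rap 4 mice had 20.02, 19.6, 23.2 and 23.2 CPM. Rap 4 against day 13 differed by 0.59 ± 0.21 with an edgeR adjusted p of 0.0521, just outside the threshold. Npas2 was called higher there in 7 of the 8 alternatives that left out no mouse (adjusted p from 0.00762 to 0.0485, DESeq2 among them) and in 1 of the 8 that left out 1, without day 13 mouse C. On day 4 the mice read 17.5, 23.2, 24.7 and 22.9 CPM (edgeR adjusted p = 0.198), on day 6 16.4 to 20.1 CPM and on day 8 14.3 to 23.1 CPM, all ranges that overlapped control.

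Per1 (chr11:69095217-69109960), the Period gene that also responds to acute stimuli, was separated from control on day 4. It read 43.5, 45.4, 46.1 and 41.2 CPM in control and 64.9, 61.2, 65.2 and 57.2 CPM on day 4, with no overlap. The difference was 0.50 ± 0.052 (edgeR adjusted p = 6.8e-04), a value of 0.497 that lies just under the minimum fold change. Over the edgeR and DESeq2 alternatives that left out no mouse its adjusted p reached 0.367. Per1 was called without control mouse B or C or day 4 mouse B or D (0.51 to 0.53, edgeR adjusted p at most 0.00473). On day 6 the level was 44.99, 51.3, 51.7 and 50.2 CPM (difference 0.16 ± 0.052, edgeR adjusted p = 0.0718). The late groups spread widely, with 39.2, 55.1, 27.1 and 41.3 CPM on day 8 and 67.4, 37.2, 87.0 and 42.2 CPM on day 13. Day 13 mice A and C were high and B and D were inside or below the control range, and Fos was high in A, B and C. In the Rap 4 mice Per1 was at 43.3, 52.6, 49.3 and 55.2 CPM (edgeR adjusted p = 0.164 against control).

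Per2 (chr1:91415982-91459324), the second Period repressor, was at 44.7, 46.0, 44.5 and 35.9 CPM in control and at 71.6, 85.8, 80.6 and 36.7 CPM on day 13. Mice A, B and C of day 13 were above all other mice in the study, and mouse D was at the low end of control. Day 13 mouse D was also the one with the lowest Fos of its group. The difference from control, 0.66 ± 0.22, had an edgeR adjusted p of 0.0501 and was not called; without mouse D it was 0.87 (edgeR adjusted p = 8.7e-04). In 6 of the 8 alternatives that left out no mouse Per2 was called higher on day 13 (adjusted p from 0.00281 to 0.0465), and in no fit that left out another mouse. The Rap 4 mice had 51.6, 41.2, 41.0 and 38.5 CPM, and Per2 fell by 0.66 ± 0.22 in Rap 4 against day 13 (edgeR adjusted p = 0.0446), a call lost when any mouse except day 13 mouse D was left out (edgeR adjusted p from 0.0531 to 0.118) and under the GC correction (0.0895). Day 4 (43.5 to 53.1 CPM), day 6 (41.3 to 48.3 CPM) and day 8 (33.4 to 51.2 CPM) overlapped control.

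Per3 (chr4:151003652-151044665), the Period gene with the 2 D-boxes shown above, had the largest differences among the members on day 8, on day 13 and between Rap 4 and day 13. It was at 91.1, 89.8, 87.3 and 86.3 CPM in control, 88.8, 89.6, 109 and 84.1 CPM on day 4, and 70.7, 68.6, 73.5 and 74.0 CPM on day 6. Day 4 overlapped control, and on day 6 all 4 mice were below all 4 control mice. The day 6 difference of -0.32 ± 0.036 (edgeR adjusted p = 1.4e-04) was small beside the minimum fold change and was not called. Over the edgeR and DESeq2 alternatives that left out no mouse its adjusted p reached 0.744. When all 24 mice shared one estimate of spread, no member had an unadjusted edgeR p under 0.05 on day 6. On day 8 Per3 read 37.2, 66.5, 32.9 and 62.5 CPM and on day 13 14.9, 12.6, 55.7 and 38.6 CPM. All 8 late mice were below every control and every day 6 mouse. Per3 fell by 0.84 ± 0.20 on the log2 scale on day 8 (edgeR adjusted p = 0.0178) and by 1.56 ± 0.42 on day 13 (edgeR adjusted p = 0.0230). Within the file-name numbers that day 8 and control share, the day 8 difference was -0.86 for mice A and B and -0.94 for mice C and D. The day 8 call was lost without day 8 mouse A (-0.72, edgeR adjusted p = 0.0532) and when all 24 mice shared one estimate of spread (-0.83, edgeR adjusted p = 0.0722), and the day 13 call was lost without any 1 of the control mice A, B, C or D (edgeR adjusted p from 0.0516 to 0.0547), with the difference between -1.57 and -1.55.

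Under rapamycin Per3 was on the other side of control. The Rap 4 mice had 139, 113, 118 and 111 CPM, above all 20 other mice. The difference from control was 0.44 ± 0.065 (edgeR adjusted p = 0.00340), under the minimum fold change. Against day 13, Per3 rose by 1.99 ± 0.42 (edgeR adjusted p = 0.00687), a call that held in all 8 fits that left out 1 mouse (1.73 to 2.46, edgeR adjusted p at most 0.0223). The comparisons of day 13 and Rap 4 with control share the control mice.

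Ciart (chr3:95878503-95882251), the repressor with 3 E-boxes in its window, was the member that was called higher on days 8 and 13. It was at 6.42, 5.81, 5.32 and 7.59 CPM in control, 8.79, 11.7, 10.6 and 9.40 CPM on day 8 and 10.1, 11.8, 11.7 and 9.54 CPM on day 13. All 8 late mice were above all control mice, and the mice that split in Per3 and Dbp did not split in Ciart. Ciart rose by 0.68 ± 0.13 on day 8 (edgeR adjusted p = 0.00784) and by 0.76 ± 0.14 on day 13 (edgeR adjusted p = 0.00430). Both calls held without any single mouse, with edgeR adjusted p of at most 0.0299 on day 8 and 0.0191 on day 13, and the day 8 difference was 0.73 and 0.65 within the shared file-name numbers. On day 4 Ciart read 7.39, 7.34, 9.10 and 8.10 CPM, on day 6 6.73, 8.26, 8.93 and 6.28 CPM, and under rapamycin 8.26, 6.97, 11.8 and 6.33 CPM. Each of those 3 groups overlapped control and none was called, and Rap 4 against day 13 gave -0.36 ± 0.19 (edgeR adjusted p = 0.167).

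Nr1d1 (chr11:98767932-98775333), a repressor of Arntl, had its highest group mean on day 4 and its lowest on day 13. It was at 30.1, 26.7, 23.9 and 31.3 CPM in control and 40.2, 34.0, 39.2 and 33.2 CPM on day 4, with no overlap. The day 4 difference was 0.39 ± 0.087 (edgeR adjusted p = 0.0275), under the minimum fold change. Its adjusted p reached 0.0791 (edgeR) with 1 mouse left out and 0.554 over the edgeR and DESeq2 alternatives that left out none. On day 8 the level was 19.1, 28.4, 14.6 and 27.96 CPM and on day 13 16.7, 11.95, 22.2 and 26.3 CPM, so that day 8 mice A and C and day 13 mice A, B and C were below the control range. The day 13 difference of -0.56 ± 0.22 had an edgeR adjusted p of 0.0882, and was called without day 13 mouse D (-0.75, edgeR adjusted p = 0.0230). It was also called in 2 of the 8 alternatives that left out no mouse. Day 6 (23.6 to 30.8 CPM) and Rap 4 (21.8 to 31.6 CPM) overlapped control. Nr1d1 shares 263 exonic bases with Thra on the opposite strand, and the strand setting of the counting is not given in the sources used here. Thra was at 326, 393, 259 and 346 CPM in the day 8 mice, 277, 254, 391 and 364 CPM in the day 13 mice and 352 to 401 CPM in control. Like Nr1d1, it was lowest in day 8 mice A and C and in day 13 mice A and B. The part of the shared bases in the Nr1d1 values was not tested.

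Nr1d2 (chr14:18204054-18239127), the other REV-ERB gene, was steady in control (93.7, 96.7, 101 and 103 CPM) and split in the late groups. It read 69.2, 96.9, 69.4 and 99.7 CPM on day 8 and 35.2, 31.4, 88.7 and 77.2 CPM on day 13. Day 8 mice A and C and all day 13 mice were below control, and day 13 mice A and B were at under 36 CPM. The day 13 difference of -0.78 ± 0.31 had an edgeR adjusted p of 0.0876. It was called in 4 of the 8 alternatives that left out no mouse (adjusted p from 0.00663 to 0.0490) and without day 13 mouse C (-1.04, edgeR adjusted p = 0.0261). The Rap 4 mice had 117, 97.6, 128 and 109.5 CPM, and Nr1d2 rose by 0.97 ± 0.31 in Rap 4 against day 13 (edgeR adjusted p = 0.0383). That call was lost without day 13 mouse A or B or any 1 Rap 4 mouse (edgeR adjusted p from 0.0599 to 0.0855) and under the GC correction (0.0544). Day 4 (95.2 to 106 CPM) and day 6 (85.1 to 98.0 CPM) overlapped control.

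Dbp (chr7:45705088-45710203), the output gene with the deepest daily swing in many tissues, varied more between late mice than between groups. It was at 17.8, 17.5, 17.0 and 22.1 CPM in control, 11.8, 21.9, 7.60 and 16.6 CPM on day 8 and 3.46, 3.71, 16.5 and 19.4 CPM on day 13. Day 13 mice A and B had less Dbp than any other mouse, while mice C and D were near control, and day 8 mouse C was the next lowest. The mean difference on day 13, -0.82 ± 0.52, was not called (edgeR adjusted p = 0.266), nor was that on day 8 (-0.37 ± 0.25, edgeR adjusted p = 0.361). On day 4 Dbp was at 19.5, 19.6, 27.6 and 26.6 CPM (edgeR adjusted p = 0.163), on day 6 at 17.8, 22.1, 22.97 and 17.3 CPM and under rapamycin at 22.6, 21.8, 25.5 and 16.2 CPM. Rap 4 against day 13 gave 1.02 ± 0.52 (edgeR adjusted p = 0.158). Dbp shares 539 exonic bases with Sphk2 on the opposite strand; Sphk2 stayed between 18.9 and 24.4 CPM in all 24 mice.

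Tef (chr15:81802421-81826863), the other D-box activator of the list, was lowest in the same mice, by less. It was at 376, 367, 361 and 351 CPM in control, 298, 374, 276 and 334 CPM on day 8 and 239, 209, 378 and 292 CPM on day 13. Day 8 mice A, C and D and day 13 mice A, B and D were below the control range. The differences of -0.20 ± 0.085 on day 8 (edgeR adjusted p = 0.157), -0.40 ± 0.16 on day 13 (0.0969) and 0.46 ± 0.17 for Rap 4 against day 13 (0.0607) were not called. Without day 13 mouse C the last 2 of these were called (-0.55, edgeR adjusted p = 0.00861, and 0.63, 0.00482). Tef was also called in Rap 4 against day 13 in 2 of the 8 alternatives that left out no mouse. Day 4 (357 to 390.5 CPM), day 6 (354 to 379 CPM) and Rap 4 (349.7 to 419 CPM) overlapped control.

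**Figure D2:**
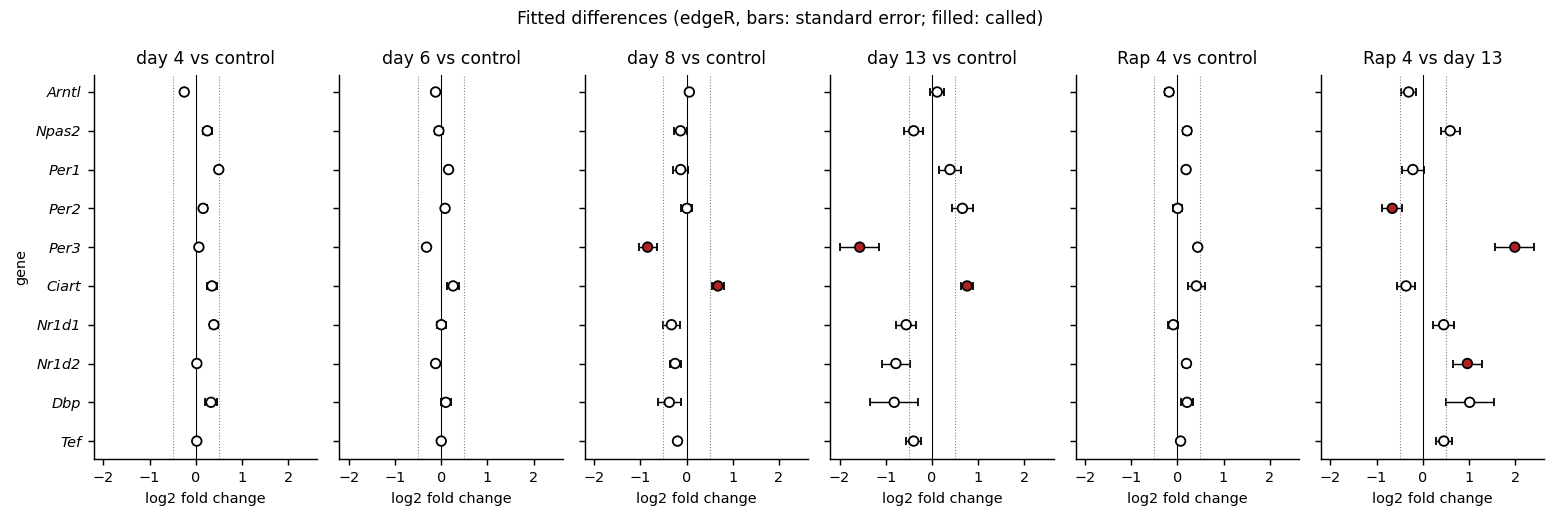
Log2 fold change (x axis) of the 10 genes (y axis) in the 6 comparisons, 1 panel each; bars are standard errors from the edgeR fits, filled points are called, and dotted lines mark a log2 fold change of 0.5 in either direction. Per3 and Ciart are filled on days 8 and 13, and Per3, Nr1d2 and Per2 in Rap 4 against day 13.

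Counted over the list, no member was called on day 4 or day 6 by edgeR or by DESeq2, when 0.680% and 1.32% of all genes tested were called; 6 and 3 members had an unadjusted p under 0.05. By adjusted p alone 3 members passed on day 4 (Per1 and Nr1d1 higher, Arntl lower), beside 4.16% of all genes, and 1 on day 6 (Per3), beside 10.1%. The same 3 and the same 1 were the members whose mice did not overlap control, a separation seen in 11.7% of all genes on day 4 and 16.0% on day 6. Over the edgeR and DESeq2 alternatives that left out no mouse, the adjusted p on day 4 reached 0.367 (Per1), 0.554 (Nr1d1) and 0.523 (Arntl). That of Per3 on day 6 reached 0.744. On day 8, 2 of 10 members were called (Ciart higher, Per3 lower), beside 3.99% of all genes, and the same 2 did not overlap, beside 20.4%. On day 13, 2 of 10 were called, beside 16.5% of all genes, a share near that of the list, and 3 did not overlap (Ciart higher, Per3 and Nr1d2 lower), beside 30.8%. In Rap 4 against control no member was called by edgeR or by DESeq2, beside 1.41% of all genes, 5 had an unadjusted p under 0.05, and Per3 was the 1 member that passed by adjusted p alone (3.57% of all genes) and did not overlap (11.9%). In Rap 4 against day 13, 3 of 10 were called, beside 21.1%, and Per3 and Nr1d2 did not overlap, beside 32.7%.

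The median log2 fold change of the 10 members was 0.20 on day 4, 0.0027 on day 6, -0.16 on day 8, -0.40 on day 13 and 0.19 in Rap 4 against control. Over all genes tested the medians of these comparisons lay between -0.040 and 0.0058. In Rap 4 against day 13 it was 0.45 for the members and 0.023 for all genes. In a test of any difference among the 6 groups over the 24 mice (edgeR quasi-likelihood F test), 7 of 10 members had an adjusted p under 0.05, beside 41.9% of all 27110 genes tested. Per3 had the smallest (2.0e-04), followed by Ciart (0.00326), Nr1d1 (0.00838), Per2 (0.00882), Nr1d2 (0.0156), Tef (0.0223) and Npas2 (0.0393), while Arntl (0.0602), Per1 (0.0716) and Dbp (0.141) did not pass.

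Of the 10 members, 8 had a larger SD between mice on day 8 and on day 13 than in any of the other 4 groups, and Arntl and Ciart did not. The share of all genes with this order was not counted, so the 8 has no background. Other genes also spread more in the late groups. For genes of the mean level of Per1, the median SD of log2 CPM was 0.062 in control, 0.099 on day 8 and 0.157 on day 13. The SD of Dbp on the log2 CPM scale was 0.17 in control, 0.27 on day 4, 0.21 on day 6, 0.66 on day 8, 1.34 on day 13 and 0.28 in the Rap 4 mice. On day 8 it was above the SD of 99.2% of genes of like mean level, whose median SD was 0.12, and on day 13 above 99.8%, with a median of 0.20. Per3 had an SD of 0.036 in control, lower than most genes of like level (19.4% had a lower one), but 0.52 on day 8 and 1.04 on day 13, above 99.5% and 99.8% of them. Nr1d2 had 0.77 on day 13, above 98.9%, and Per1 0.42 on day 8, above 98.3%. On days 8 and 13 in turn, the SD of Tef was above 86.8% and 91.8%, that of Npas2 above 93.0% and 90.4% and that of Per2 above 93.0% and 96.2%. That of Nr1d1 was above 98.15% and 92.9%, and that of Arntl above 62.8% and 87.7%. Ciart had 0.18 on day 8 and 0.15 on day 13, and on day 13 only 21.5% of genes of like level had a lower SD.

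**Figure D3:**
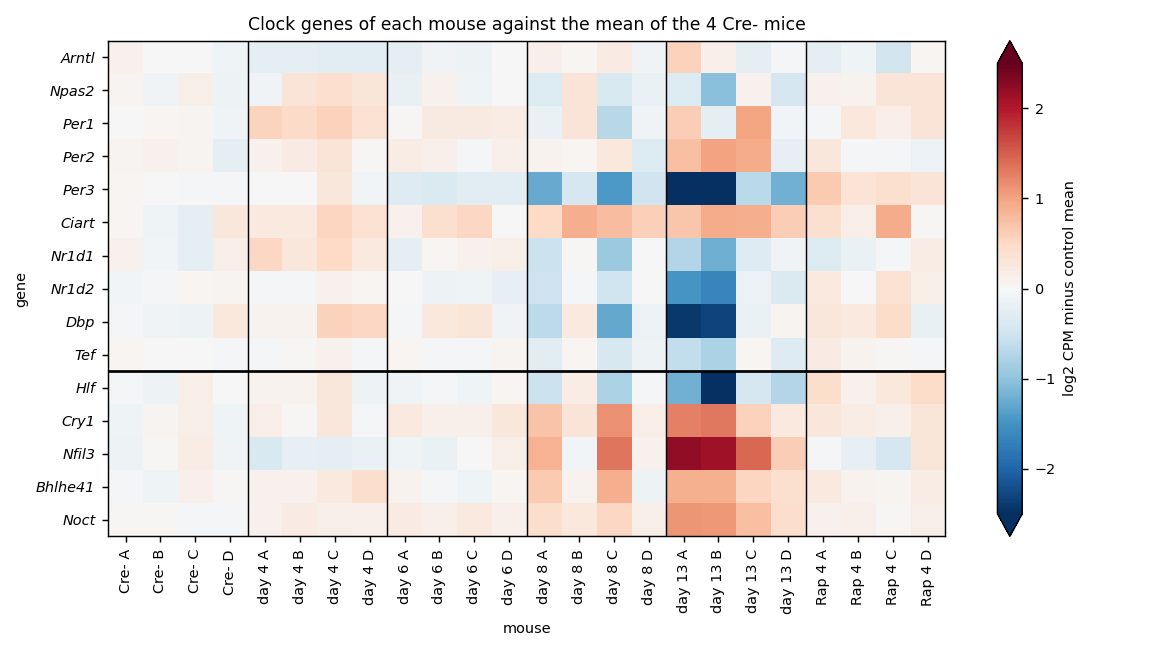
Log2 CPM minus the control mean (color, from blue for lower to red for higher, capped at 2.5 either way) of the 10 members above the heavy line and of Hlf, Cry1, Nfil3, Bhlhe41 and Noct below it (rows) in each of the 24 mice (columns). Day 8 mice A and C and day 13 mice A and B are lower in Per3, Nr1d1, Nr1d2, Dbp, Tef and Hlf and higher in Cry1 and Nfil3 than the other mice of their groups.

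The same mice stood apart in several members, but Npas2, Per1, Per2 and Ciart did not split this way in both late groups. Npas2 and Per1 were lowest in mice A and C on day 8 but in mice B and D on day 13. Day 8 mice A and C had the 2 lowest values of their group for Per3, Nr1d1, Nr1d2, Dbp and Tef and the 2 highest for Arntl. Day 13 mice A and B had the 2 lowest values of their group for the same 5 genes, and the 2 highest for Arntl. These 4 mice were also the 2 highest in Gfap of each group: 682 and 900 CPM against 127 and 158 CPM on day 8, and 751 and 1357 CPM against 372 and 437 CPM on day 13. Gja1, the astrocyte gap junction gene, was at 49.3 and 62.7 CPM in day 13 mice A and B and at 119 and 145 CPM in C and D. Fos did not follow this split, since day 13 mouse C had the highest Fos (151 CPM) with Dbp at 16.5 CPM. The summed level of 5 astrocyte markers ran from 1048 to 1087 CPM in control, 879 to 1057 on day 4 and 881 to 919 on day 6. It ran from 831 to 1678 on day 8, 1153 to 2088 on day 13 and 834 to 886 in the Rap 4 mice, with no marker at 0. Gfap carried the high sums. The other 4 markers (Aqp4, Slc1a3, Aldh1l1 and Gja1) together ran from 861 to 925 CPM in control, 720 to 825 on day 4 and 736 to 756 on day 6. They ran from 675 to 778 on day 8, 716 to 781 on day 13 and 720 to 762 in the Rap 4 mice. All Cre-positive mice were thus below control in this sum. On day 13, 1 of the 5 markers was called higher (Gfap) and 1 lower (Gja1). The part of these differences in the clock gene values was not tested. Day 13 mice A and B had totals of 69971957 and 126435936 counts and C and D 38423852 and 41101425, so the split on day 13 coincides with depth and with the number in the file names, while on day 8 each number holds 1 mouse of each kind and the totals of A and C (58164907 and 53564370) lie around those of B and D (59124484 and 54511694).

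Within groups, 4 of the 45 pairs of members correlated past the threshold. After removal of the group means, Pearson's r over the 24 mice was 0.95 for Per3 with Tef (permutation p = 2.0e-05, mice permuted within groups, two-sided; adjusted p = 9.0e-04 over the 45 pairs; Spearman's rho = 0.90, adjusted p = 0.00202). Without day 13 mice B and C, the farthest from the median of Per3, r was 0.88 (permutation p = 7.0e-05), and without all day 13 mice its adjusted permutation p was 0.00765. Per3 with Nr1d2 had r = 0.95 (adjusted permutation p = 0.0496; rho = 0.77, 0.0679), Npas2 with Per1 r = 0.77 (0.0496; rho = 0.60, 0.0679) and Arntl with Dbp r = -0.73 (0.0496). Without the 2 mice farthest from the median of the first gene of the pair these values of r were 0.90, 0.57 and -0.54 (permutation p = 0.0421, 0.0394 and 0.00551, unadjusted). Those 3 lay just inside the threshold. Over the 20 mice without day 13 their r was 0.79, 0.62 and -0.59, with adjusted permutation p of 0.272, 0.272 and 0.10, a smaller r in each and over fewer mice. By rank 4 pairs passed: Per3 with Tef, Arntl with Dbp (rho = -0.79, adjusted permutation p = 0.00495), Arntl with Nr1d2 (rho = -0.89, 0.00180) and Dbp with Nr1d2 (rho = 0.85, 0.0139). Arntl with Nr1d2 had r = -0.74 (adjusted permutation p = 0.0609) over all mice and an adjusted permutation p of 0.0486 without day 13.

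**Figure D4:**
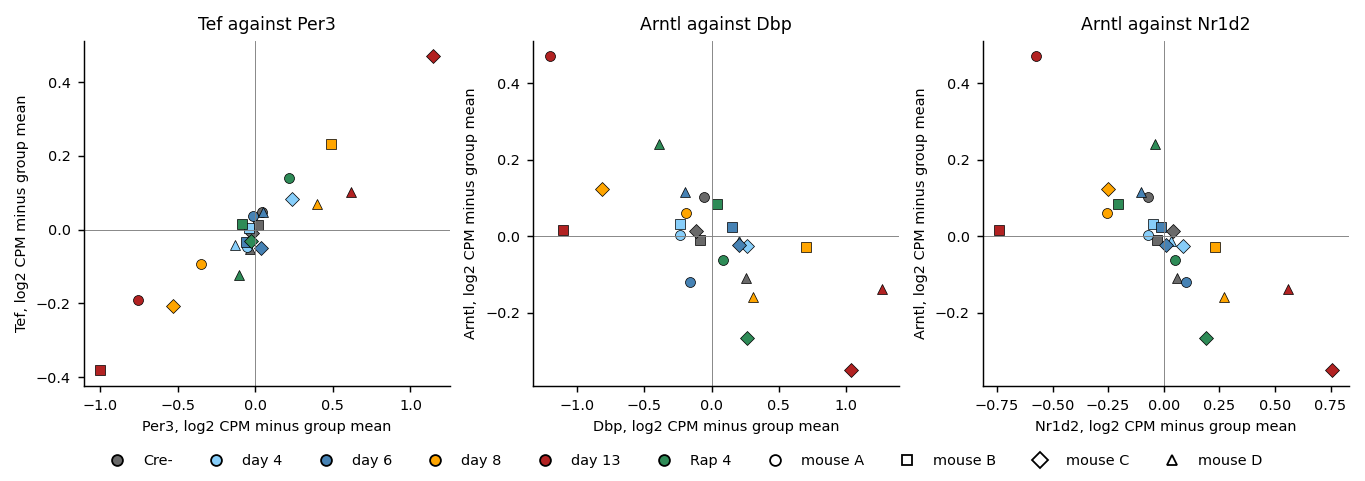
Log2 CPM minus the group mean of Tef against Per3, Arntl against Dbp and Arntl against Nr1d2 (x and y axes as labelled), 1 point per mouse, with color for the group and marker shape for mice A to D. Mice with more Per3 have more Tef (r = 0.95), and mice with more Dbp or Nr1d2 have less Arntl (r = -0.73 and -0.74), with the day 13 mice at the ends of each cloud.

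Since Arntl and Dbp peak at opposite times of day, the log2 CPM of Dbp minus that of Arntl was taken for each mouse. This value covers these 2 genes only and is described here without a test. It was -1.59, -1.50, -1.56 and -1.06 in control mice A to D, and its mean was -1.43 ± 0.25 (SD, n = 4) there, -0.87 ± 0.29 on day 4, -1.21 ± 0.24 on day 6 and -1.04 ± 0.48 in the Rap 4 mice. On day 8 it was -2.22, -1.23, -2.91 and -1.50, and on day 13 -4.41, -3.85, -1.35 and -1.33. Mice B and D of day 8 and C and D of day 13 lay among the control values, and the other 4 mice lay below all 20 others. The Rap 4 mice, collected on the same day as the day 13 mice, read -0.89, -1.08, -0.51 and -1.67. In day 8 mice A and C and day 13 mice A and B, Dbp lay -0.65, -1.28, -2.41 and -2.31 from the control mean in log2 CPM. Arntl lay 0.13, 0.20, 0.57 and 0.12 from it, so the low values followed Dbp more than Arntl. Per2 lay 0.08, 0.27, 0.75 and 1.01 from it in the same mice, so the genes of the loop did not all move the same way.

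**Figure D5:**
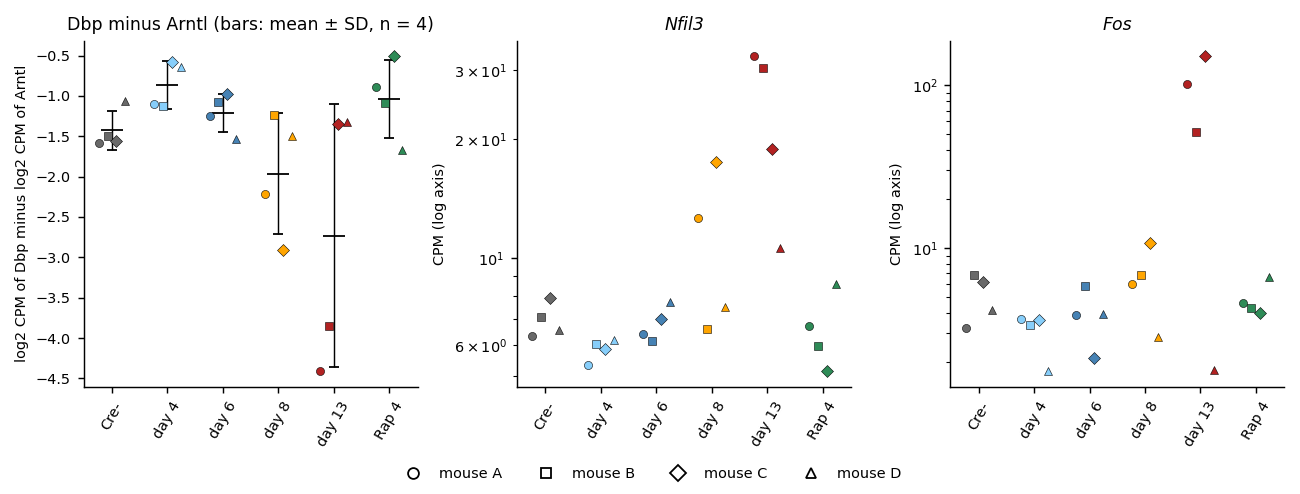
Left, log2 CPM of Dbp minus log2 CPM of Arntl (y axis) in each mouse of the 6 groups (x axis), with bars for mean ± SD (n = 4); middle and right, Nfil3 and Fos in CPM on log axes in the same mice. The 4 mice with the lowest difference, day 8 A and C and day 13 A and B, have the 2 highest Nfil3 values of their groups, whereas Fos is also high in day 13 mouse C.

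A further list of 21 clock genes was read beside the members. None was called on day 4, on day 6 or in Rap 4 against control by edgeR or by DESeq2; 10, 9 and 7 of them had an unadjusted p under 0.05. On day 8, Cry1, a repressor partner of the Period proteins, was the 1 gene called (0.62 ± 0.18, edgeR adjusted p = 0.0454). It was at 10.6 to 12.6 CPM in control and at 18.7, 14.3, 25.4 and 12.8 CPM on day 8, again highest in mice A and C, and the call was lost when any 1 control mouse or day 8 mouse A or C was left out (edgeR adjusted p from 0.0621 to 0.119), under the GC correction, and with the shared file-name number as a block. The 1 of 21 stood beside 3.99% of all genes. On day 13, 4 of 21 were called, beside 16.5% of all genes, all higher: Nfil3, a repressor that competes for D-boxes (1.71 ± 0.30, edgeR adjusted p = 0.00378), Cry1 (0.89 ± 0.22, 0.0155), Noct, a deadenylase-related output gene (0.85 ± 0.13, 0.00219), and Bhlhe41, an E-box repressor (0.67 ± 0.11, 0.00318). Without control mouse D Cry1 was not called there (0.86, edgeR adjusted p = 0.0509). The median over the 21 genes was -0.079, beside -0.040 over all genes. Nfil3 was at 6.33 to 7.91 CPM in control, 12.6, 6.60, 17.5 and 7.48 CPM on day 8 and 32.4, 30.4, 18.9 and 10.6 CPM on day 13, so all 4 day 13 mice were above control, those with low Dbp the most. In Rap 4 against day 13, 5 of 21 were called, beside 21.1% of all genes: the same 4 genes lower and Hlf, the third D-box activator beside Dbp and Tef, higher (1.40 ± 0.42, edgeR adjusted p = 0.02996). In each of these 3 comparisons the share of the list was near that of all genes. The Hlf call was lost without day 13 mouse A or any 1 Rap 4 mouse (edgeR adjusted p from 0.0538 to 0.0748), the Cry1 call (-0.68) without day 13 mouse A or B or any 1 Rap 4 mouse (0.0692 to 0.0900) and in all 3 fits with the replicate block, the GC correction or both, and the Bhlhe41 call (-0.54) without day 13 mouse A or B, when the difference was -0.48 and -0.49. Nfil3 and Noct were called whichever mouse was left out. Hlf read 45.3, 12.6, 78.1 and 62.3 CPM on day 13 and 95.6 to 116 CPM in control. Clock, the partner of Arntl, was not called in any comparison.

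Genes that respond to signals from outside the loop, to which Per1 and Per2 are also known to respond, were counted as well. On day 13, 6 of 10 genes induced by neuronal activity and 8 of 11 genes induced by glucocorticoids were called, all higher, beside 16.5% of all genes. Leaving out 1 mouse gave 3 (without control mouse D) to 9 activity genes and 8 to 9 glucocorticoid genes. In Rap 4 against control, in which 1.41% of all genes were called, 7 of the 11 glucocorticoid genes were called, all higher, and 2 of the 10 activity genes, both lower, while Per1 and Per2 were not called. The 7 held whichever mouse was left out, and the 2 fell to 0 or 1 without control mouse B or C or Rap 4 mouse A, B or C. On day 4, when Per1 was separated from control, 2 of the 11 glucocorticoid genes were called higher (Sgk1 and Map3k6) and 2 activity genes lower, beside 0.680% of all genes. Without any 1 mouse of that comparison 0 or 1 activity genes were called, and Map3k6 was lost without control mouse D or day 4 mouse A or C. Over the whole lists, the median log2 fold change on day 4 was 0.36 for glucocorticoid genes and -0.41 for activity genes, beside -0.0047 over all genes. Of these genes 10 and 5 had an unadjusted edgeR p under 0.05. In Rap 4 against control the medians were 0.62 and -0.13, beside 0.0058, with 11 and 3 genes under 0.05. On day 13 the medians were 0.69 and 1.71, beside -0.040. Of 6 genes that follow body temperature, upward or downward, 3 were called on day 13, all higher, beside 16.5% of all genes. They were the heat shock genes Hsph1 (0.95) and Hspa8 (0.59) and the cold-inducible gene Rbm3 (0.59), so the count has no single direction in temperature. Cirbp, also cold-inducible, was not called. It was at 27.7, 25.8, 29.7 and 43.1 CPM in day 13 mice A to D and at 35.6 to 47.9 CPM in control. The part of these signals in the Period values was not tested.

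The genes most like Dbp and Arntl across mice were picked by Pearson's r after removal of group means among 14015 other genes with a mean of at least 1 CPM. For Dbp the 5 highest were Izumo4 (0.96), Slc30a10, a manganese transporter (0.94), Pccb, a subunit of propionyl-CoA carboxylase (0.94), Cspg5 (0.94) and Hes6 (0.94). Without the day 13 mice these values were 0.77 to 0.89. The 5 lowest were Zbtb3 (-0.97), the nucleolar helicase Ddx21 (-0.96), Mak16, a factor of ribosome assembly (-0.96), Stat3 (-0.96) and Mon2 (-0.95), and they were -0.90 to -0.86 without day 13. For Arntl the 5 highest were Zmiz1 (0.91), Actn4 (0.89), Map3k13 (0.89), the glial transcription factor Sox9 (0.86) and Samd4b (0.86). The 5 lowest were Serinc3 (-0.85), Ramp2 (-0.84), Slco1a4, a transporter of brain endothelium (-0.84), Hes6 (-0.83) and Oplah (-0.83). Hes6 was thus among the genes most like Dbp and least like Arntl. These values are descriptions over 24 mice that share the late split above, and the extremes of many genes are high by selection.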

How the data were processed

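Total RNA of 24 hippocampi was sequenced from stranded, ribosomal RNA-depleted libraries. Per the labels, the authors trimmed reads with cutadapt 1.16.5, aligned them to mm10 with STAR 2.7.2b and summed counts per gene with featureCounts 1.6.4; the deposited values are raw counts per Ensembl gene, 1 file per mouse, and the strand setting is not given in the sources used here. Symbols came from GENCODE M21 (55144 of 55385 identifiers matched), promoters from RefSeq (GRCm38.p6).

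Each comparison used the 8 mice of its groups: filterByExpr, TMM scaling and edgeR 4.0.16's quasi-likelihood test in R 4.3.3, with Benjamini-Hochberg adjustment over all genes tested. Standard errors are the fold change divided by the root of its F value. Thresholds follow the study's methods. Levels are TMM-scaled CPM over 27110 genes, and log2 CPM used a prior count of 2. Correlations used 100000 permutations of mice within groups. Genes of like level lie within 0.5 in mean log2 CPM. DESeq2 1.42.0, other scaling, filters, blocks, a GC correction and left-out mice were alternatives. Scripts were tested on simulated data. The limit on false calls set for that check was raised after the DESeq2 likelihood ratio test exceeded it, so the check does not vouch for that alternative. Named genes were all members, every other clock gene called, and the 5 most and least like Dbp and Arntl, without predicted genes. The members, lists and motifs were chosen with earlier results of these data known.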

Additional observations from a re-analysis of the deposited data

Results flagged for a closer look

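In 2 of 60 sets of 4 mice, 1 mouse lay far from the other 3 by Dixon's test, a rate below the 1 in 20 sets that chance gives. Both were control mouse D, which had less Per2 than the other control mice (35.9 CPM against 44.5 to 46.0) and more Dbp (22.1 CPM against 17.0 to 17.8). Rapamycin-treated and untreated day 13 mice differed in 3 members by a direct test of the difference between them (edgeR): Per3 by 1.99, Nr1d2 by 0.97 and Per2 by -0.66 on the log2 scale.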

How the results depend on the processing

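No member's fold change with an unadjusted p under 0.05 changed direction: 28 such values gave 451 under alternatives, of which 392 kept their side of the threshold, 22 lost the call and 37 gained it. Members called were 3, 1 and 1 on day 4, day 6 and in Rap 4 against control with no minimum fold change (main 0 each), and 1 on day 4 without the filter on low counts. With all 24 mice in one fit, 1 was called on day 8 (main 2), and 5 each on day 13 (main 2) and in Rap 4 against day 13 (main 3). DESeq2 called 4 on day 13. The replicate block (letters A to D) gave 4 on day 13 and, with the GC correction, 5 there and 6 in Rap 4 against day 13; it changed the count of members called by over 1.5 times in no other comparison. The letters name different animals, and deviations of same-lettered mice did not correlate (r from -0.121 to 0.0883), so the block pairs nothing. Leaving out 1 mouse gave 0 to 1 members on day 4, 1 to 2 on day 8, 1 to 5 on day 13 and 1 to 5 in Rap 4 against day 13. Other clock genes called were 2, 4, 6, 8, 1 and 11 with no minimum fold change (day 4, 6, 8, 13, Rap 4 against control and against day 13). They were 1 on day 6 without the filter; 2 with DESeq2, 0 with the GC correction and 0 with the file-name number as a block on day 8 (main 1); and 7 on day 13 with the replicate block and GC correction (main 4). Leaving out 1 mouse gave 0 to 2 on day 6, 0 to 2 on day 8 and 2 to 6 in Rap 4 against day 13 (main 5). Pairs of members that correlated were 4, but 1 with the variance-stabilizing transformation, 30 without removal of group means, 2 without the 2 extreme mice, and 2 without day 8 and day 13, an alternative chosen after seeing the data. Those last 2 were Per2 with Tef and Dbp with Ciart (adjusted permutation p = 0.0103 each), neither among the 4. Over these fewer mice r was 0.80 for Per3 with Tef (adjusted permutation p = 0.0645) and 0.27 for Per3 with Nr1d2 (0.923). It was 0.24 for Npas2 with Per1 (0.923) and -0.62 for Arntl with Dbp (0.149). The 7 members with a difference among groups were 5 to 9 under all alternatives, with the 9 from the DESeq2 likelihood ratio test. The cause of these changes was not tested, beyond the wider rule or fewer mice that some of them consist of. On day 13 the difference of Dbp (-0.82) was not called and that of Ciart (0.76), of like size, was; their standard errors were 0.52 and 0.14.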
